A study of Homo sapiens with 11 samples.

Results

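The 7 genes described here encode the enzymes that write and remove DNA methylation, and the protein that guides the maintenance enzyme: DNMT1, UHRF1, DNMT3A, DNMT3B, TET1, TET2 and TET3. They were found by symbol, from a list drawn up with earlier results of these data known. All 7 were found among the 21316 genes of the A549 table and among the 20915 genes of the H1299 table. A549 is a human lung adenocarcinoma cell line, and H1299 is a human non-small cell lung cancer line. The study depleted METTL3, the catalytic subunit of the enzyme that places N6-methyladenosine (m6A) on mRNA, and sequenced poly(A) RNA. Each line had 1 control library, from cells labelled with a short hairpin RNA against GFP (shGFP), and 2 libraries labelled shMETTL3, here called libraries 1 and 2, which makes 6 in all. The labels leave out what the numbers mean (hairpin, culture or repeat), the vector and the time of knockdown. The p-values below therefore measure only the spread between these libraries, which may be technical.

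In mammalian cells DNA methylation sits mainly on the cytosine of CG pairs. After replication the new strand lacks the mark; UHRF1 binds the half-methylated CG pairs and brings in DNMT1, which copies the mark (maintenance). DNMT3A and DNMT3B place methyl groups on unmethylated DNA (de novo methylation), and the TET dioxygenases TET1, TET2 and TET3 oxidise 5-methylcytosine, the first step of its active removal. DNMT1 and UHRF1 are known as genes of dividing cells.

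Recovered reads per library lay between 14447379 and 19966206 in A549 and between 23099169 and 26351309 in H1299. METTL3, the targeted gene, was at 41.6 and 41.7% of its control in A549 libraries 1 and 2 and at 45.4 and 36.9% in H1299. Its log2 change over both lines was -1.27 (SE 0.13, adjusted p = 0.139 by limma), so even the target did not pass. Of the epithelial markers EPCAM, KRT8, KRT18, KRT19 and CDH1, EPCAM and KRT19 were under 1 in every H1299 library; the list summed to 1189 to 1609.7 there and to 18102 to 26155 in A549. The leukocyte marker PTPRC was under 1 in every library. The ribosomal RNA precursor RNA45S5 held 20.5 to 25.4% of the H1299 signal, against at most 0.284% in A549. A549 library 1 differed from library 2: the 5 epithelial markers had a median log2 difference from the control of 0.74 in it and of -0.08 in library 2. Each library's values are therefore given separately below.

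DNMT1 and UHRF1, the maintenance pair, were below the control in all 4 knockdown libraries. TET1 and TET2 were above it in all 4, but not after the libraries were centred on their medians. DNMT3A and TET3 were above the control in library 1 and below it in library 2 of each line, but after centring in A549 only. DNMT3B lay on opposite sides of the control in the lines, also after centring. No member passed the test by limma. Among the 15546 genes measured in both lines, 9.05% were below the control in all 4 libraries, 10.5% above it in all 4, and 19.5% one or the other, beside 2, 2 and 4 of the 7 members. Among genes with a mean of at least 20 in each line these shares were 10.3% below and 9.89% above. Within a line, both knockdown libraries lay on the same side for 54.4% of genes in A549, beside 5 of the 7 members, and for 55.1% in H1299, beside 5 of 7. The knockdown libraries of a line share their control.

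By limma, 0 of 17454 genes had an adjusted p under 0.05 in A549 (0%), and 115 (0.659%) had an unadjusted p under 0.05. In H1299 limma called 0 of 16470 genes, with 99 (0.601%) unadjusted. Over both lines limma called 0 of 15546, with 374 (2.41%) unadjusted, and for the difference between the lines 0, with 49 (0.315%) unadjusted. edgeR's quasi-likelihood test on the recovered A549 reads called 0 of 17454, with 138 (0.791%) unadjusted. Over both lines the count was 188 without library 1 and 353 without library 2 of each line, and no member was among the called genes. A fit within 1 line leaves 1 residual degree of freedom, so these counts do not show that no gene changed.

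Values are the deposited normalized signal per gene, which is not divided by transcript length; levels are compared between libraries and not between genes. The DNMT1 signal in A549 was 846 for the control, 754 for library 1 and 740.3 for library 2. H1299 gave 2266.5 for the control, 1997 for library 1 and 2029 for library 2. Every knockdown library of DNMT1, the maintenance methyltransferase, was thus below its control, at 89.0 and 87.5% in A549 and 88.1 and 89.5% in H1299. The 4 log2 ratios ran from -0.19 to -0.16, the narrowest range among the 7 genes. All 4 of their 95% intervals excluded 0; these intervals cover counting error only and compare single libraries, not conditions. By limma, on log2(value + 1), the change was -0.18 in A549 (SE 0.18, adjusted p = 1) and -0.17 in H1299 (SE 0.17, adjusted p = 1). Over both lines it was -0.18 (SE 0.10, 95% interval -0.40 to 0.05, unadjusted p = 0.107 by limma). The difference between the lines was 0.01 (SE 0.24).

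UHRF1, the reader of half-methylated DNA, measured 207 for the A549 control, 189 for library 1 and 156 for library 2. H1299 gave 759 for the control, 725 for library 1 and 581 for library 2. All 4 knockdown libraries were lower, but by unequal amounts: library 1 kept 90.9% of the control in A549 and 95.5% in H1299, and library 2 kept 75.0 and 76.5%. Of these ratios, the 2 of library 2 had counting intervals that excluded 0. By limma the change was -0.27 in A549 (SE 0.23, adjusted p = 1) and -0.23 in H1299 (SE 0.22, adjusted p = 1). Over both lines it was -0.25 (SE 0.14, 95% interval -0.57 to 0.07, unadjusted p = 0.109 by limma). Without library 1 it was -0.40, and without library 2 it was -0.10. ARRDC5, which overlaps UHRF1 in the reference gene table, did not exceed 1.07 in any library.

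**Figure D1:**
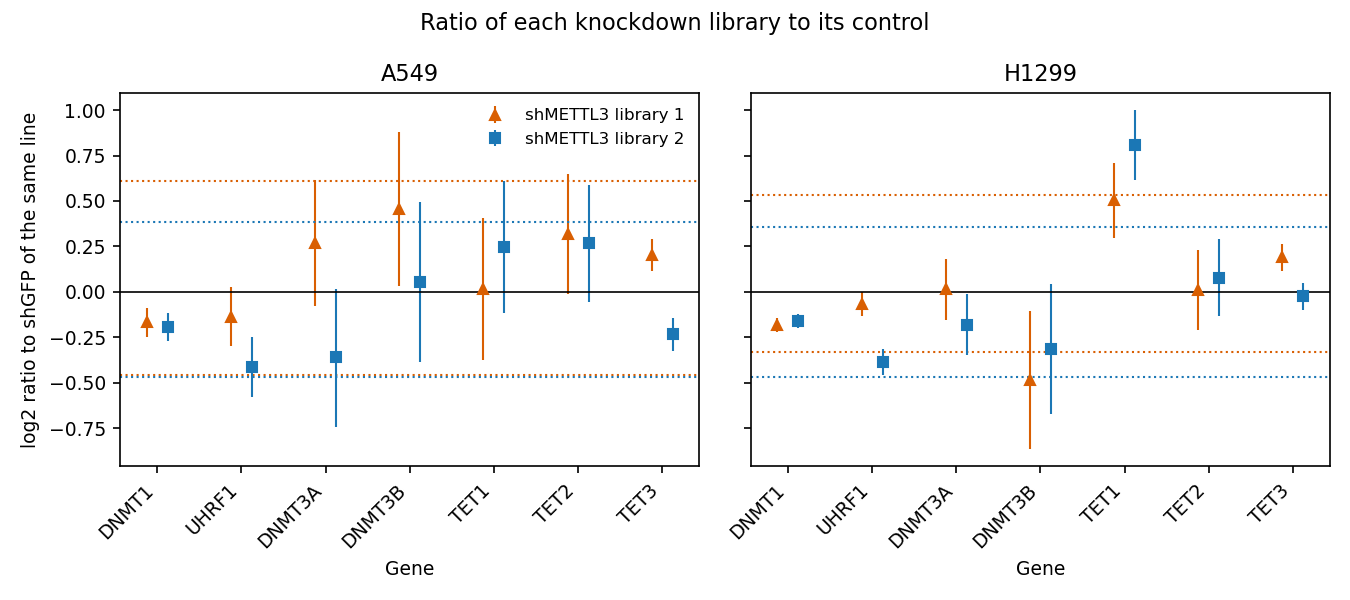
log2 ratio of each shMETTL3 library to the shGFP library of its line, for each gene (points), with 95% intervals for counting error (bars). Dotted lines mark the 5th and 95th percentiles over genes with a mean of at least 20, coloured by library. DNMT1 and UHRF1 lie below 0 in all 4 libraries, and TET1 in H1299 reaches 0.81.

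A short sequence occurs in promoters of both maintenance genes, shown here because both genes were below the control in every knockdown library. RefSeq promoters (GRCh38.p14) were searched on both strands for TTTCGCGC and TTTGGCGC, forms of the site bound by E2F factors, which drive genes of DNA replication. All 7 members matched the promoter table by symbol, with 1 to 6 starts each. DNMT1 has 1 start, and its motif reads on the strand opposite to the gene, from 2 bases before the start into the first transcribed bases. UHRF1 has 3 starts, and the motif was found at the second of them, 160 bases before it, on the gene's own strand. The sequences run 5′ to 3′ on the gene's strand, over the 250 bases before the start and, for DNMT1, 6 after it. They lie at chr19:10194948-10195203 (minus strand) and chr19:4909894-4910143 (plus strand), with the motif or its complement in capitals:
DNMT1: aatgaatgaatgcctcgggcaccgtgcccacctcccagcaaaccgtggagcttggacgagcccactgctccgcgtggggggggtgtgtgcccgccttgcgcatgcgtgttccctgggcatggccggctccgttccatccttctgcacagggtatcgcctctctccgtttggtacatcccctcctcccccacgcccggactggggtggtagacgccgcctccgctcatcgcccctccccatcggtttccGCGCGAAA
UHRF1: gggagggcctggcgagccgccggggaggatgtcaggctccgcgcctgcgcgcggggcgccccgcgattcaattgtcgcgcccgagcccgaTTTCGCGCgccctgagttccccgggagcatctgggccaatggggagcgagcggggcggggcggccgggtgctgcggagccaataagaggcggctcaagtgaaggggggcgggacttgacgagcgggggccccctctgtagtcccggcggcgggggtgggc

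None of the starts of DNMT3A, DNMT3B, TET1, TET2 and TET3 held either form in this window. Over all 27305 genes of the promoter table, 1.40% had a motif at any start. Of the 22 matched S phase genes 9 (40.9%) had it: MCM2, MCM3, MCM6, MCM7, CDC6, E2F1, E2F2, GINS1 and POLA1. GINS1 was above the control in library 2 of each line, and the other named S phase genes were below it in every knockdown library. HELLS and EZH2, from the partner lists given below, also had the motif, and each lay on both sides of the control. A link between the motif and the change was not tested. A match describes these letters and is not a measured binding site. Other forms of the site were not searched, so a window without a match, also of UHRF1, may hold one. The DNMT1 window of 300 bases holds 30 CG pairs and the UHRF1 window 40, against a median of 14 over all starts. Other members reach similar counts: the DNMT3A starts hold 18 to 46, those of TET3 45 and 33, and those of TET2 13 and 35. The TET1 starts hold 6 to 11 and the single DNMT3B start 3. That DNMT3B window, chr20:32779602-32779901 (plus strand), lies inside the gene, which begins at 32762385 in the reference gene table. The UHRF1 and TET3 windows also begin after the gene's first base there. Starts outside the windows were not searched.

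DNMT3A, a de novo methyltransferase, measured 39.7 for the A549 control, 47.9 for library 1 and 30.9 for library 2. H1299 gave 121 for the control, 122 for library 1 and 107 for library 2. Library 1 was thus above and library 2 below the control in both lines, although H1299 library 1, at 101%, hardly differed from it. The A549 values rest on 99 to 151 reads and neither interval excluded 0; in H1299 that of library 2 did. By limma the change was -0.04 in A549 (SE 0.36) and -0.08 in H1299 (SE 0.25), each with an adjusted p of 1. Without library 2 the direction turned, to 0.26 in A549 and 0.01 in H1299.

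DNMT3B, the second de novo enzyme, measured 25.3 for the A549 control, 34.6 for library 1 and 26.25 for library 2. H1299 gave 29.8 for the control, 21.3 for library 1 and 24.0 for library 2. Both knockdown libraries were above the control in A549 and both below it in H1299; 11.7% of the 15546 genes lay on opposite sides in the lines in this way. The values rest on 84 to 152 reads per library. The intervals of library 1 excluded 0 in both lines, and those of library 2 did not. By limma the change was 0.25 in A549 (SE 0.33) and -0.38 in H1299 (SE 0.30), each with an adjusted p of 1. In A549 it was 0.05 without library 1 and 0.44 without library 2, and in H1299 -0.30 and -0.47. The difference between the lines was -0.63 (SE 0.44, 95% interval -1.68 to 0.42, adjusted p = 0.999956 by limma) and did not pass. DNMT3L, the catalytically inactive cofactor of the de novo enzymes, was at 0.2 in the H1299 control and at 0 in both H1299 knockdown libraries; the A549 table has no row of that name.

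TET1 had the largest fitted difference among the members. H1299 gave 69.8 for the control, 98.9 for library 1 and 122 for library 2, so that the knockdown libraries were at 142 and 175% of the control. Both H1299 intervals excluded 0, running from 0.30 to 0.71 and from 0.61 to 0.998 on the log2 scale. The A549 signal was 34.2 for the control, 34.6 for library 1 and 40.6 for library 2, or 101 and 119%, and both intervals included 0. By limma the change was 0.65 in H1299 (SE 0.27, 95% interval -0.02 to 1.32, unadjusted p = 0.0560, adjusted p = 1) and 0.13 in A549 (SE 0.29, adjusted p = 1). In A549 it was 0.24 without library 1 and 0.02 without library 2, and in H1299 0.80 and 0.50. The difference between the lines was 0.52 (SE 0.38, unadjusted p = 0.218 by limma) and did not pass. Over both lines the change was 0.39 (SE 0.19, 95% interval -0.04 to 0.82, unadjusted p = 0.0699 by limma).

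TET2, the TET enzyme often mutated in blood cancers, measured 42.1 for the A549 control, 52.5 for library 1 and 50.6 for library 2. H1299 gave 71.8 for the control, 72.2 for library 1 and 75.8 for library 2. The A549 libraries were at 125 and 120% of the control and the H1299 libraries at 101 and 106%, and none of the 4 intervals excluded 0. By limma the change was 0.29 in A549 (SE 0.25) and 0.04 in H1299 (SE 0.25), each with an adjusted p of 1. The overlapping antisense gene TET2-AS1 did not exceed 0.71 in any library.

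TET3, the TET enzyme known for its role in the fertilised egg, measured 604 for the A549 control, 694 for library 1 and 513 for library 2. H1299 gave 605.5 for the control, 690.4 for library 1 and 595 for library 2. Library 1 was at 115% of the control in A549 and 114% in H1299, and library 2 at 85.0 and 98.2%. The intervals of library 1 excluded 0 in both lines, above the control, and that of A549 library 2 excluded it below. By limma the change was -0.02 in A549 (SE 0.26) and 0.08 in H1299 (SE 0.21), each with an adjusted p of 1; these means lie between libraries on opposite sides. BOLA3, which overlaps TET3 in the reference gene table, measured 57.3 to 137.81, and the strand setting of the counting is not known from the sources used here.

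**Figure D2:**
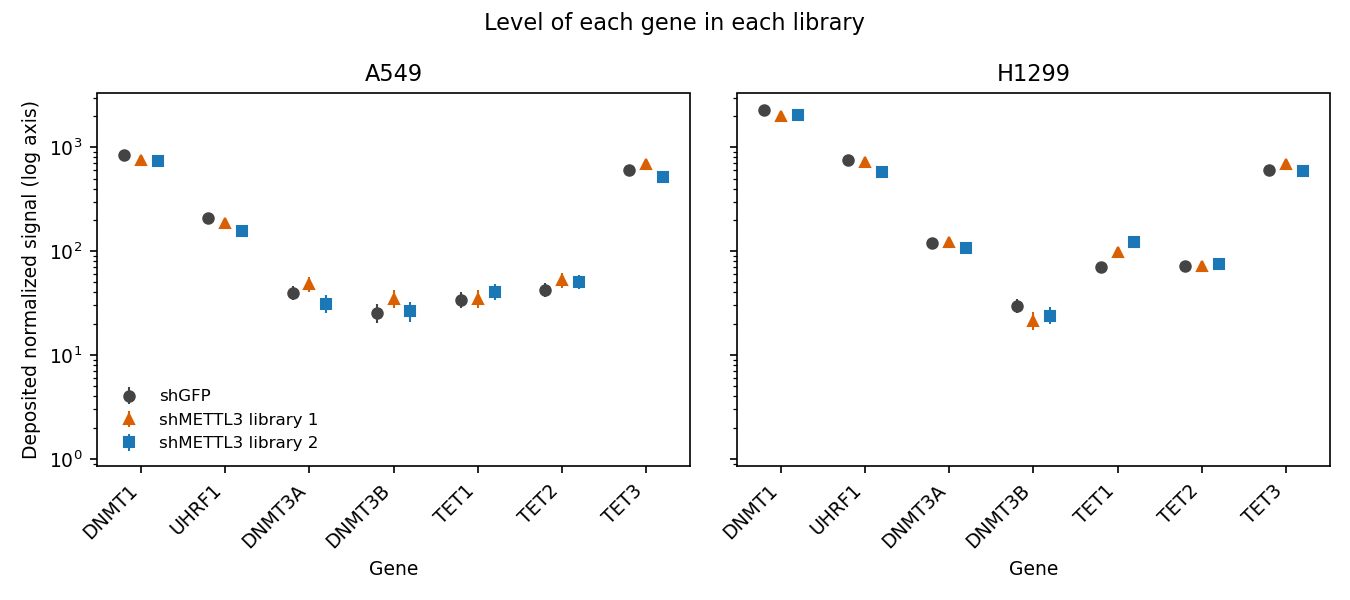
Deposited normalized signal of each gene in each library (log axis), in A549 (left) and H1299 (right), with 95% Poisson intervals for counting error. The lines were scaled separately, and signals of different genes are not divided by length. The DNMT1 control lies at 846 in A549 and at 2266.5 in H1299, while TET3 lies at 604 and 605.5.

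Over all members, 14 of the 28 ratios of a knockdown library to its control had a counting interval that excluded 0. These were all 4 of DNMT1, 3 of TET3, 2 each of UHRF1, DNMT3B and TET1, 1 of DNMT3A and 0 of TET2. The share of such ratios over all genes was not computed. The intervals leave out variation between libraries, so this is not a count of changed genes. Centring each library on its median over genes with a mean of at least 1 lowers H1299 library 1 by 0.12 and A549 library 1 by 0.07 on the log2 scale, relative to the control. DNMT1 and UHRF1 remained below the control in all 4 libraries after it (DNMT1 from -0.31 to -0.12, UHRF1 from -0.40 to -0.19). TET1 then came to -0.05 in A549 library 1 and TET2 to -0.11 in H1299 library 1, so that neither was above the control throughout. TET1 in H1299 was still above it, at 0.37 and 0.84. DNMT3A in H1299 came to lie below the control in both libraries (-0.11 and -0.13), and TET3 in H1299 above it in both (0.07 and 0.02).

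Library 2 was below library 1 in both lines for 3 of the 7 members, UHRF1, DNMT3A and TET3, beside 37.8% of the 15546 genes. This comparison was added after the values had been seen. As a share of library 1, library 2 held 82.5% of the UHRF1 signal in A549 and 80.1% in H1299, 64.6 and 87.4% for DNMT3A, and 74.0 and 86.2% for TET3. TET1 went the other way, with 117 and 123%, beside 20.7% of genes above in both lines. DNMT1 hardly differed between the libraries, with 98.2 and 101.6%. These shares and the fit below were not centred. The median log2 signal of libraries 1 and 2 differed from the control by 0.07 and -0.01 in A549, and by 0.12 and -0.04 in H1299. After centring, H1299 libraries 1 and 2 were at -0.11 and -0.13 for DNMT3A and at 0.07 and 0.02 for TET3. UHRF1 was at -0.19 and -0.34 there, TET1 at 0.37 and 0.84, and DNMT1 at -0.31 and -0.12. In the limma fit of both lines the term for the number was -0.32 for TET3 (SE 0.11, unadjusted p = 0.0174, adjusted p = 0.175). For UHRF1 it was -0.30 (SE 0.11, adjusted p = 0.195 by limma) and for DNMT3A -0.40 (SE 0.16, adjusted p = 0.239), so no member passed. The same term passed for 257 genes (1.65%), and its unadjusted p was under 0.05 for 18.6%.

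Ratios between members within a library do not depend on the scale of that library. For 1 gene against 1 other, the change between libraries also does not depend on gene length. Where signals are summed, length sets the weight of each gene, so the change depends on it. The ratio of UHRF1 to DNMT1 in A549 was 0.245 for the control, 0.250 for library 1 and 0.210 for library 2. H1299 gave 0.335, 0.363 and 0.286 in the same order. Library 2 thus held 85.8 and 85.5% of the control ratio in A549 and H1299, and library 1 held 102 and 108%. The ratio of DNMT1 to DNMT3A plus DNMT3B, maintenance against de novo, was 13.0, 9.13 and 12.9 in A549 and 15.05, 13.9 and 15.5 in H1299. A549 library 1, at 70.2% of its control, was the furthest from it.

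The summed TET signal against the summed DNMT signal was above the control in all 4 knockdown libraries. The control, library 1 and library 2 gave 0.747, 0.935 and 0.758 in A549, and 0.309, 0.403 and 0.367 in H1299. As a share of the control the knockdown ratios were 125 and 102% in A549 and 130 and 119% in H1299. TET3 and DNMT1 make up most of these sums of signal, and TET3 to DNMT1 stood on both sides of its control: at 129 and 97.1% in A549 libraries 1 and 2, and at 129 and 109.7% in H1299. TET1 to DNMT1 reached 161 and 195% of the control in H1299, against 114 and 136% in A549. TET2 to DNMT1 reached 140 and 137% in A549, and 114 and 118% in H1299. These ratios were described without a test, and those of sums could differ if signals were divided by length.

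The lines differed in the makeup of the set. Setting 1 gene's signal against another's within a library allows the lines to be placed side by side, provided both tables counted the same gene models, which the sources used here do not say. DNMT3B to DNMT3A lay between 0.636 and 0.848 in the A549 libraries and between 0.175 and 0.247 in the H1299 libraries, without overlap. TET3 to DNMT1 lay between 0.694 and 0.921 in A549 and between 0.267 and 0.346 in H1299. TET1 to TET3 was the other way round, between 0.0499 and 0.0791 in A549 and between 0.115 and 0.205 in H1299. UHRF1 to DNMT1 was also higher in H1299, where its lowest value was 0.286 and the highest in A549 was 0.250. Of the 9 ratios computed, TET1 to DNMT1 was the only one whose ranges overlapped between the lines. The ratios share genes, and how often other pairs of genes separate the lines was not computed. The knockdown libraries are not replicates of the control, so these ranges carry no test.

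**Figure D3:**
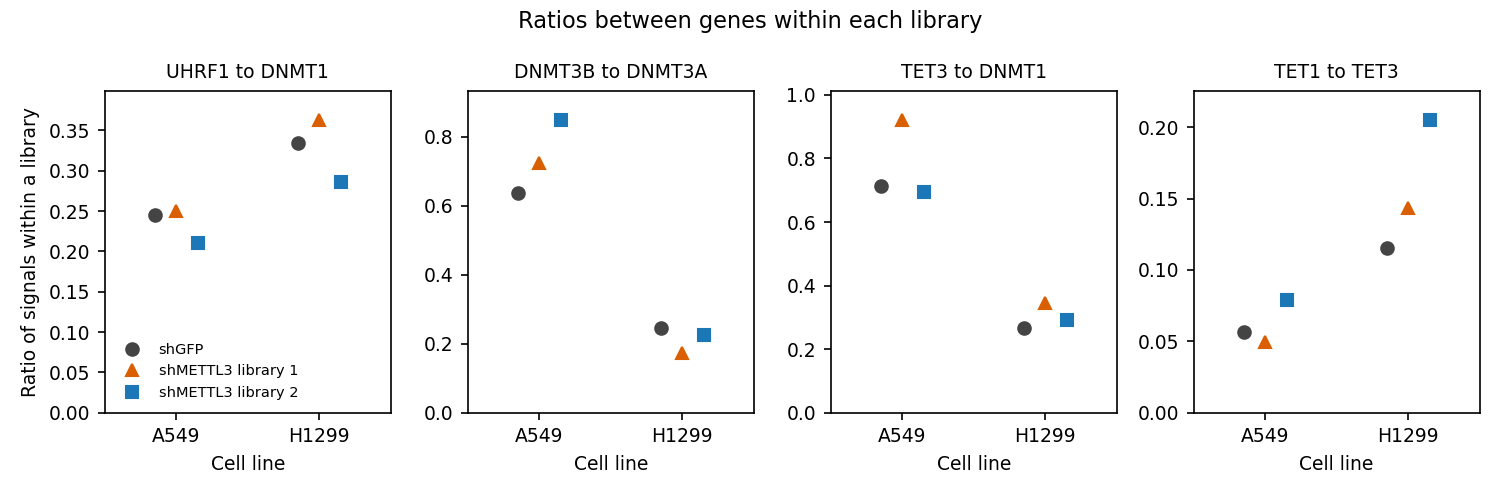
Ratio of the signals of a pair of genes within each library, by cell line, with 1 point per library and no error bar. The lines do not overlap in any of the 4 panels: DNMT3B to DNMT3A is at least 0.636 in A549 and at most 0.247 in H1299. How often other pairs of genes separate the lines was not computed.

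On the separately scaled tables, the H1299 control had 2.68 times the A549 control's signal for DNMT1, 3.66 times for UHRF1 and 3.04 times for DNMT3A. The factor was 2.04 for TET1, 1.71 for TET2, 1.18 for DNMT3B and 1.002 for TET3. These factors depend on the authors' scaling of each table and on the RNA45S5 share above, whose part in them was not tested.

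Genes that work with DNMT1 and UHRF1 lay on both sides of the control. Of 9 maintenance partners, 1 was above and 3 below the control in both A549 libraries, and 2 and 3 in H1299. Over all genes 27.2% were above and 27.2% below in A549, and 30.6 and 24.5% in H1299. PCNA, the replication clamp that binds DNMT1, measured 1407 for the A549 control, 1361 for library 1 and 1613 for library 2; H1299 gave 262, 372 and 266 in that order. HELLS, a chromatin remodeller needed for DNA methylation, gave 36.8, 40.0 and 38.1 in A549, and 32.4, 39.3 and 27.8 in H1299. UHRF2, the relative of UHRF1, gave 197, 177 and 219 in A549, and 110.0, 109.6 and 130.0 in H1299. None of these 3 genes was below the control in all 4 libraries; of the 9 partners 1 was, CDCA7, named after its values were seen, with log2 differences of -0.14 and -0.07 in A549 and -0.16 and -0.25 in H1299.

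Most genes of the S phase list were below the control in both libraries of a line, as DNMT1 and UHRF1 were. PCNA and LIG1 were counted among the maintenance partners and not in this list, and neither was below the control in all 4 libraries. Of 25 S phase genes, 21 were below the control in both A549 libraries and 0 above, with median log2 differences of -0.27 in library 1 and -0.23 in library 2. In H1299 14 were below and 1 above, with medians of -0.04 and -0.17. Over all genes 27.2% were below in both A549 libraries and 24.5% in both H1299 libraries, and the medians were 0.02 and -0.01 in A549 and 0.09 and -0.04 in H1299. In all 4 libraries 14 of the 25 were below the control, beside 9.05% of genes measured in both lines, and limma called none of the 25 in either line. The part of replicating cells in the DNMT1 and UHRF1 values was not tested, and in bulk RNA fewer cells of a state and less RNA per cell cannot be told apart.

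Genes listed around the supply of S-adenosylmethionine, the methyl donor of the DNMT enzymes, are given by their counts, with no test of the list. The list includes genes that do not themselves make the donor, such as AHCY and AHCYL1. AHCYL1 is among those counted below as lower in all 4 libraries. Of 12 in H1299, 8 were below in both libraries and 2 above, with medians of -0.11 and -0.20, beside 24.5% of all genes below. Of 11 measured in A549, 5 were below and 1 above, with medians of -0.05 and -0.14, beside 27.2% below. In all 4 libraries 5 of 11 were below and 0 above, beside 9.05% of genes below, and none passed by limma.

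The lists around the de novo and TET enzymes and the readers lay on both sides of the control. Of 10 genes for the excision of oxidised cytosine, 3 were below and 0 above in A549, and 4 and 1 in H1299. TDG, the glycosylase that removes the oxidised bases, gave 477, 416 and 437.5 for the control and libraries 1 and 2 in A549, and 203, 225 and 194 in H1299. Of 9 TET partners, 4 were above and 2 below in A549, and 1 and 0 in H1299. Of 9 de novo partners, 4 were above and 3 below in A549, and 1 and 4 in H1299. Of 7 methyl-CpG readers, 2 were above and 1 below in A549, and 2 and 2 in H1299. The library medians of these lists reached at most 0.19 on the log2 scale, and limma called none of their genes.

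**Figure D4:**
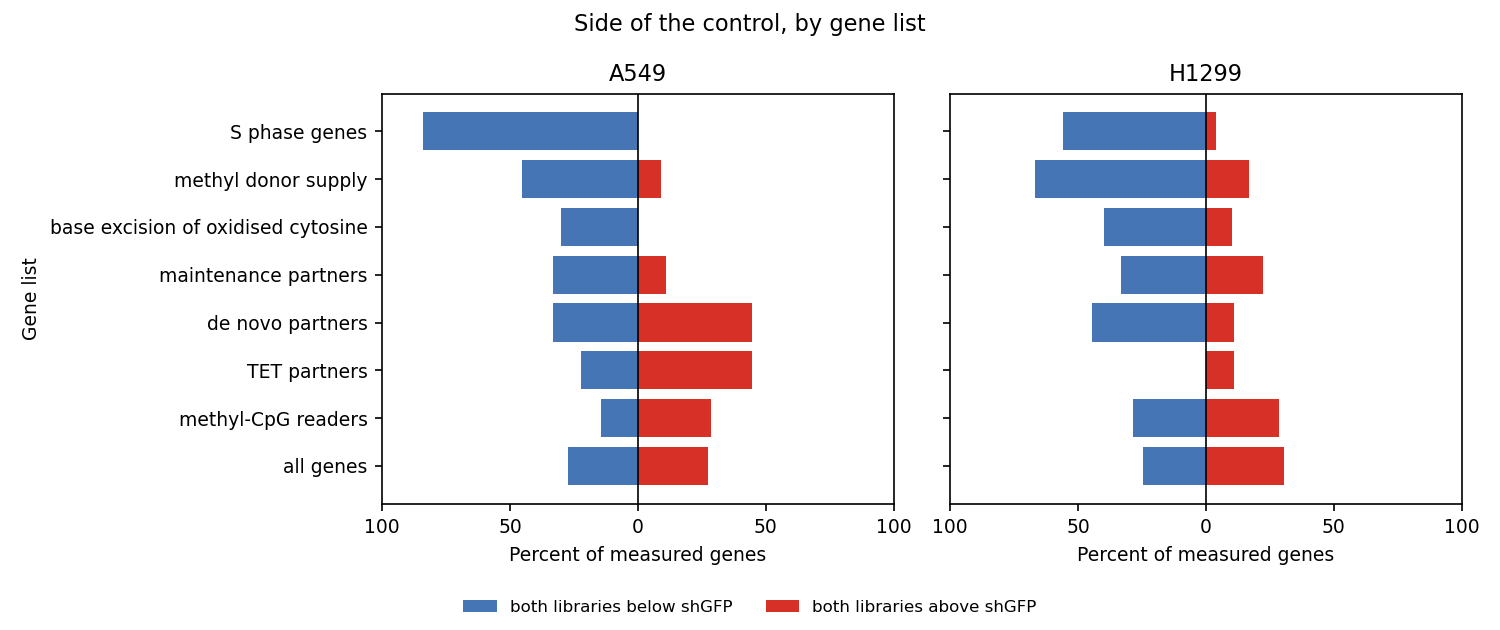
Percent of the measured genes of each list with both shMETTL3 libraries above (red, right) or below (blue, left) the shGFP library, in A549 and H1299. Of the S phase genes 21 of 25 are below the control in A549 and 14 of 25 in H1299, where the methyl donor list, with 8 of 12, reaches further left.

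Germline genes that are silenced by promoter methylation in most somatic tissues were listed as a possible readout of the enzymes. Of 26, 8 reached a mean of 1 in A549 and 13 in H1299. In A549 6 of the 8 were below the control in both libraries and 0 above, beside 27.2% of all genes below. In H1299 1 of 13 was below and 4 above, beside 24.5 and 30.6% of all genes. Of the 6 in A549, MAGEA12, BAGE and SYCP3, named after their values were seen, did not exceed 4.47 in any A549 library. MAGEA6, a cancer-testis antigen, measured 58.7 for the A549 control, 28.2 for library 1 and 35.0 for library 2 (log2 change -0.88, SE 0.29, adjusted p = 1 by limma). H1299 gave 699, 684 and 769 in that order. MAGEA6 has near-identical relatives such as MAGEA3, so that its reads may be shared with them. Among the pathway lists it was the 1 gene with a mean of at least 5 that differed at least 1.5-fold in the same direction in both libraries of a line. The fibroblast marker COL1A1 met the same rule in H1299, with 12.5 for the control, 30.0 for library 1 and 32.2 for library 2.

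The genes most like each member were those at the smallest Euclidean distance over the 4 log2 ratios to the control, among 10098 genes with a mean of at least 20 in each line. For DNMT1 these were PDZD8 and KLF16 (distance 0.04 each), and for UHRF1 PREP and ZNF26 (0.05 and 0.06). For TET3 they were GLIS3 and NRSN2 (0.05 and 0.07), for TET2 ZSWIM8 and DUSP16 (0.06 and 0.07), and for DNMT3A SLX1A-SULT1A3 and IL17RA (0.07 and 0.10). DNMT3B had NUTM2D and CEP170B (0.17 and 0.18), and TET1 had KDELR3 and VPS33A (0.15 and 0.21). DNMT3B and TET1 thus had the most distant neighbours. The ratios of a line share their control library, and with 4 ratios such neighbours are a description only.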

How the data were processed

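Poly(A) RNA-seq of A549 and H1299 was used. Per the labels' protocols, libraries were made with a stranded mRNA kit; Bowtie, TopHat and hg19 appear in the submitters' processing notes. The authors deposited a normalized signal per gene and library. In A549 100% of values were whole reads divided by 1 factor per library, within 2 decimals. H1299 values fit the same within 1 decimal; no count test was run on them, and H1299 reads serve counting intervals only. The sources used here do not give the counter, annotation, strand setting or basis of the factors. The A549 columns headed shMEL were matched to the knockdown samples by number.

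Genes with a mean of at least 1 entered limma 3.58.1 (R 4.3.3; log2(value + 1), eBayes with an intensity trend). A Benjamini-Hochberg adjusted p under 0.05 was called. Fits of all 6 libraries held the line as a term, with an interaction for the difference. edgeR 4.0.16 was run on the A549 reads; the design had foreseen it for H1299 and for both lines too, and had foreseen ratios per coding length, for which no lengths were at hand. Counting intervals (95%, scipy 1.17.1) are exact Poisson, or Clopper-Pearson for ratios. The within-line fits were also run on simulated data with the same added spread for every gene. The increases set there were larger than any member difference, so that run does not bear on changes of the members' size. Members, lists and rules were chosen with earlier results of these data known. Named were all members, METTL3, DNMT3L, UHRF2, TDG, HELLS, PCNA, listed genes with a mean of at least 5 that differed 1.5-fold the same way in both libraries of a line, and 2 neighbours per member. The m6A peak lists, on hg19, were not used here, for want of an annotation of that build. Alternatives were a pseudocount of 0.1, a mean of at least 5 or 20 or no minimum, median centring, no trend, all 6 libraries in 1 fit, edgeR, and leaving out each knockdown library.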

Additional observations from a re-analysis of the deposited data

Results flagged for a closer look

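DNMT3B lay on opposite sides of the control in the lines: both knockdown libraries were above it in A549 (34.6 and 26.25 against 25.3) and both below it in H1299 (21.3 and 24.0 against 29.8). The difference between the lines was -0.63 on the log2 scale (SE 0.44, adjusted p = 0.999956 by limma) and did not pass.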

How the results depend on the processing

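No member passed under any alternative run, and 258 of 273 member values kept their direction. Over both lines the count of called genes went from 0 to 1 with median centring, to 188 (33 higher, 155 lower) without library 1 and to 353 (249 higher, 104 lower) without library 2; the cause was not tested. The fits within a line or of the difference, with a library left out, assume that a lone library varies like the others. Those over both lines without library 1 or library 2 take their spread from how far the changes of the lines differ. They hold no spread between knockdown libraries of a line. DNMT3A ran from -0.35 without library 1 to 0.26 without library 2 in A549, from -0.18 to 0.014 in H1299 and from -0.26 to 0.14 over both lines. TET3 ran from -0.23 to 0.20, from -0.026 to 0.19 and from -0.13 to 0.19. With 1 knockdown library left out, the difference between the lines ran from -0.0038 to 0.022 for DNMT1, from -0.11 to 0.21 for UHRF1, from -0.34 to 0.27 for DNMT3A and from -0.12 to 0.32 for TET3; median centring gave -0.032 for DNMT1. No paired analysis was possible because the shGFP libraries carry no number within a line. Over both lines a replicate block, added after seeing the data, gave 1 called gene and changed no member's call; the difference between libraries 2 and 1 correlated between the lines at 0.24 (across 15546 genes, which are not independent). edgeR was not run for H1299, for both lines or for the difference, and ratios per coding length were not run. Read depth limits DNMT3A and TET1 in A549 and DNMT3B in both lines most, at 152 reads or fewer per library, and TET2 in A549, at 162 or fewer.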
